A study of Homo sapiens with 13 samples.

Results

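Adolescent idiopathic scoliosis is a sideways curvature of the spine that arises around puberty without a known cause. The sequences described here carry scoliosis risk variants from 1 stretch of chromosome 6 downstream of BCKDHB. They were chosen by name: every allele pair whose chromosome 6 position lies in a window of 120000 bp there. This gave 170 allele pairs at 60 variant positions out of 4468 pairs at 1579 positions in the whole library. The pairs comprise 230 distinct sequences, because the alternative alleles of a position share 1 reference sequence. The allele pairs of the whole library comprise 6047. The positions run from chr6:81210583 to chr6:81308727 on hg19, a span of 98144 bp.

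BCKDHB encodes the E1-beta subunit of the mitochondrial complex that breaks down the branched-chain amino acids, and loss of it causes maple syrup urine disease. In the RefSeq gene order the next protein-coding gene on the far side of the stretch is TENT5A, a poly(A) polymerase known from bone formation and from a form of osteogenesis imperfecta. Risk variants between genes are thought to act, where they act at all, through enhancers, short stretches of DNA that bind transcription factors and raise transcription of a gene that may lie far away. Whether the positions lie in an intron or an exon of a noncoding transcript was not assigned, since the gene annotation at hand is on another build than hg19.

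The assay was a lentiviral massively parallel reporter assay. Each tested sequence, called an element below, drives a transcript with a short barcode, and the construct is put into the genome of the cells by a lentivirus. The RNA count of an element's barcodes over their DNA count is its activity: how strongly it drives transcription of the reporter. The cells were TC28a2, which are immortalized human chondrocytes, and SW1353, which come from a human chondrosarcoma. Both lines were harvested 48 hours after infection with the same kind of library and had no other treatment. Each line has 3 replicates labelled 1 to 3, and DNA and RNA were isolated from the same cells. The labels do not say whether the replicates were separate cultures, so that p-values measure the spread between these samples, which may be technical. The controls were 191 scrambled versions of variant windows, 9 of them from this stretch. All elements were measured outside their place on chromosome 6 and next to the reporter's own promoter.

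Counts of the 230 elements summed to 136696 to 143354 per TC28a2 DNA library and 525068 to 537917 per RNA library. The SW1353 libraries held 257032 to 259395 in DNA, with 501335 to 506586 in RNA. The median element had 137.5 to 146 barcodes in a TC28a2 DNA library and 166.5 to 172 in an RNA library. In SW1353 it had 139 to 144 in DNA but 75 to 78 in RNA, so that RNA values in SW1353 rest on fewer barcodes. The files hold at most 500 barcode positions per element and library. Of the 230 elements, 28 reached this limit in DNA (12.2%) and 34 in RNA (14.8%) of TC28a2, and 24 in DNA (10.4%) and 4 in RNA (1.74%) of SW1353. Over all elements, controls included, the shares were 21.9% and 25.2% in TC28a2 and 26.9% and 14.5% in SW1353. The median over all elements was 183 to 192 DNA barcodes in TC28a2 and 219 to 221 in SW1353. The stretch thus had fewer barcodes per element than the library, and the library shares given below are not matched for this. Counts at the same barcode position correlated weakly between the labelled replicates of the interval's reference elements, with r of 0.0745 to 0.329 in TC28a2; the range in SW1353 was -0.0526 to 0.265. Whether the labelled replicates mix values of different samples was not tested.

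Of the 170 pairs, 165 were substitutions at 55 positions, where each reference base was replaced in turn by the other 3 bases. Another 3 were insertions and 2 were deletions. The reference base was A or T at 35 of the 55 substituted positions (63.6%), against 665 of 1445 (46.0%) in the whole library. All 4 elements of position 81234990 had fewer than 10 DNA barcodes in some replicate of each line and were not tested. The reference element of the insertion at 81234961 was likewise left out in SW1353. This left 226 elements and 167 pairs in TC28a2 and 225 elements and 166 pairs in SW1353.

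Most elements from the stretch were called neither above nor below the median of the scrambled controls. At least 1 element was above this median at 21 of 54 positions in TC28a2 and at 28 of 54 in SW1353. The share of all scoliosis positions with such an element was not computed, so that these counts do not compare the stretch with the library. Activity is the log2 ratio of RNA to DNA counts minus that of the median scrambled sequence in the same line, so that 0 is the scrambled level and 1 is 2-fold above it. The median over the interval's reference elements was 0.23 in TC28a2 (n = 59) and 0.39 in SW1353 (n = 58), beside 0.26 and 0.36 over all scoliosis reference elements. In TC28a2, 64 of 226 elements were above the scrambled median (edgeR quasi-likelihood test, Benjamini-Hochberg adjusted p under 0.05), which is 28.3%, beside 27.3% of all scoliosis elements tested. In SW1353, 75 of 225 were above it (33.3%), beside 37.8% of all scoliosis elements. Below the scrambled median were 10 elements in TC28a2 (4.42%, beside 2.54% of all) and 8 in SW1353 (3.56%, beside 1.62% of all). By the same test, 9.95% of the scrambled controls themselves were above their median in TC28a2 and 12.6% in SW1353, and 6.28% and 13.1% were below it. The count of elements below fell to 5 in TC28a2 without replicate 1, without replicate 2 or without replicate 3, and to 4 in SW1353 without replicate 3. Taken against the median of all elements of the line in place of the scrambled controls, the split between above and below was 27 to 20 in TC28a2 and 29 to 26 in SW1353. With the counts of a position's alleles summed before the fit, an alternative chosen after seeing the data, more positions were called. In TC28a2, 31 of 59 positions were above the scrambled median (beside 55.6% of all scoliosis positions) and 5 below, and in SW1353 36 of 59 were above (beside 62.9% of all) and 4 below. Library shares were not computed for these positions below, nor for the split against the median of all elements.

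Positions spread more widely than the alleles of a position. Over the 54 positions with at least 3 elements tested, the SD of position means was 0.38 (TC28a2) or 0.46 (SW1353), while the elements of 1 position, which differ by a single base, had a median SD of 0.13 and 0.18. The spread within a position was smaller where more barcodes were counted: in TC28a2 its median was 0.18 at 15 positions under 100 DNA barcodes, 0.13 at 20 positions with 100 to 200 and 0.11 at 19 positions with 200 or more. In SW1353 the same medians were 0.24 at 16 positions, 0.17 at 19 and 0.17 at 19. None of these positions had elements above the scrambled median together with elements below it in either line. Position means of the lines had a Pearson r of 0.86 and a Spearman rho of 0.83 over the 54 positions. This is a description only, since the lines share the sequences and the barcode number per position (Spearman rho 0.996 between lines).

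At 7 of the 54 positions every element was above the scrambled median in both lines (13.3% of all 1424 such positions in the library were). These were 81233578, 81251116, 81261820, 81261913, 81271512, 81283591 and 81296995. At the other end, 4 positions had at least 1 element below it in both lines, namely 81252533, 81262941, 81262988 and 81274110 (2.18% of all 1424 positions had such an element). At 19 of the 54 positions no element was called in either line, beside 32.3% of all 1424.

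The strongest position in both lines was 81251116, with a G in the reference. In TC28a2 the mean over its 4 elements was 1.22, 1.40 and 1.30 in replicates 1, 2 and 3, and the fitted mean was 1.30 ± 0.09 (SD over replicates, n = 3), a 2.46-fold activity. In SW1353 it was 2.04, 1.97 and 1.81, with a fitted mean of 1.89 ± 0.12 (SD, n = 3) or 3.70-fold. Every replicate of this position lay above every other position mean given here for its line. The 4 alleles were close together: 1.32 for the reference G, 1.25 for A, 1.29 for C and 1.34 for T in TC28a2. In SW1353 the same alleles stood at 1.76, 1.84, 2.02 and 1.93. The reference element was counted 3281 times in DNA and 23317 times in RNA over the TC28a2 replicates, and 6539 and 27929 times in SW1353, so that its level rests on large counts. All 4 elements of the position reached the limit of 500 barcode positions in TC28a2 RNA and in SW1353 DNA. The part of this limit in either level was not tested. For scale, the highest scoliosis element of the whole library reached 2.68 in TC28a2 and 3.12 in SW1353, and the median cartilage open chromatin element was at 0.58 and 1.21.

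Position 81261913 came next in both lines. Its replicate means were 1.17, 1.07 and 1.10 in TC28a2 and 1.33, 1.27 and 1.13 in SW1353, and all 4 elements were above the scrambled median in each line. In SW1353 its replicate means, fitted at 1.19, overlapped those of the 4 positions that follow it, fitted at 1.03 to 1.15. Its neighbour 81261820, 93 bp away and so sharing sequence with it, had fitted means of 0.79 ± 0.07 in TC28a2 and 1.03 ± 0.24 in SW1353 (SD, n = 3), again with all 4 elements above. The very next position in the library, 81262941, was at -0.39 ± 0.23 and -0.29 ± 0.18, and 81262988, 47 bp further, was at -0.67 ± 0.05 and -0.55 ± 0.18. The 2 pairs of overlapping windows thus lay on opposite sides of the scrambled level in both lines, with no overlap between the replicate means of any high and any low position.

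Position 81296995 had replicate means of 1.00, 0.86 and 0.88 in TC28a2 and of 1.21, 0.98 and 1.17 in SW1353. The insertion position 81297039, 44 bp away, has only 2 elements, and both were above the scrambled median in both lines, with fitted means of 0.79 ± 0.08 and 0.69 ± 0.16. Position 81233578 stood at 0.83 ± 0.17 in TC28a2 and 1.15 ± 0.15 in SW1353, and 81233536, 42 bp away, at 0.56 ± 0.19 and 0.91 ± 0.23. In each of these neighbourhoods, overlapping windows were active together.

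Position 81239778 was among the 5 highest in TC28a2 only by rank: its replicate means were 0.87, 0.77 and 1.08 there, with all 4 elements above, and 0.80, 0.18 and 0.76 in SW1353, with 1 of 4 above. The difference between lines was not called for any of its elements, the lowest adjusted p being 0.361 (edgeR quasi-likelihood test of the interaction). It rests on a median of 64 DNA barcodes in TC28a2 and 57 in SW1353. Without replicate 3 none of its elements was called in SW1353. Position 81267550 was among the 5 highest in SW1353, at 0.87, 1.46 and 0.99 by replicate, and stood at 0.44, 0.16 and 0.38 in TC28a2, where 2 of its 4 elements were above the scrambled median, and 1 of 4 without replicate 1.

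The lowest positions were those at 81262988 and 81252533. All 4 elements of 81262988 were below the scrambled median in TC28a2 and 3 of 4 in SW1353. Its reference element was at -0.72, -0.33 and -0.68 in the TC28a2 replicates and -0.10, -0.65 and -0.72 in those of SW1353. Position 81252533 had replicate means of -0.96, -0.29 and -0.48 in TC28a2 and -0.67, -0.40 and -0.82 in SW1353, with 3 of 4 elements below in each line. The number called changed when a replicate was left out: without replicate 1 in TC28a2 it was 2 of 4 at 81262988 and 0 of 4 at 81252533, where the position means were then -0.65 and -0.39. Without replicate 3 in SW1353 it was 2 of 4 at 81262988 and 1 of 4 at 81252533, with position means of -0.44 and -0.58. Position 81262941 had 2 elements below in TC28a2 and 1 in SW1353; the number was 0 in TC28a2 without replicate 2 or without replicate 3, and 0 in SW1353 without replicate 1 or without replicate 3. Position 81227116 had the next lowest mean in SW1353, at -1.31, 0.15 and -0.22 by replicate, and at 0.07, 0.31 and -0.26 in TC28a2. None of its elements was called in either line, and with a median of 28 DNA barcodes in SW1353 and 32.5 in TC28a2 it was among the thinnest positions; without replicate 3, 1 of its 4 elements was below in SW1353.

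Windows reach from 100 bp before to 100 bp after a position, as the names of the controls show, and 13 of the 59 gaps between neighbouring positions were under 200 bp, so that these windows share sequence and are not separate samples of the stretch. Overlapping windows did not always share a level. From 81246949 to 81247113, 4 windows follow each other at distances of 129, 20 and 15 bp. Position 81247098 was at -0.06 ± 0.10 in TC28a2 and 0.13 ± 0.10 in SW1353, and 81247113, only 15 bp further, at 0.43 ± 0.10 and 0.42 ± 0.13 (SD, n = 3). None of the 4 elements of 81247098 was called in either line, and 3 of 4 at 81247113 were above in each. The replicate means were -0.15, 0.05 and -0.04 against 0.35, 0.55 and 0.42 in TC28a2 and did not overlap; in SW1353 they were 0.08, 0.18 and 0.28 against 0.61, 0.35 and 0.47 and did not overlap either. The difference between the windows was not itself tested, and the naming rules given below do not cover this comparison. In TC28a2, 3 elements of 81247113 were at the limit of 500 barcode positions in DNA and 3 in RNA. For 81247098 it was 1 and 1. In SW1353 DNA, 2 elements of 81247113 and 1 of 81247098 were at the limit. The part of this limit was not tested. Position 81247078 resembled 81247098, at -0.04 in TC28a2 and 0.17 in SW1353, and 81246949 was at 0.28 and 0.72.

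The 9 scrambled controls of this stretch show how far a sequence with no known role can stand from the control median. The variant sequences of the same window lay on average above their own scrambled version at 7 of 9 positions in each line, by a median of 0.28 in TC28a2 and 0.48 in SW1353. The exceptions were 81262941 and 81274110 in both lines. The library share of such positions was not computed, and the median scoliosis element of the library was itself at 0.26 in TC28a2 and 0.37 in SW1353. At 81262941, known as rs2322840, the scrambled version was active: 0.63, 0.70 and 0.73 in TC28a2 and 0.96, 0.95 and 1.09 in SW1353 (adjusted p 0.000596 and 6.1e-05, edgeR quasi-likelihood test), while the variant sequences had replicate means of -0.21, -0.64 and -0.29 and of -0.41, -0.06 and -0.22. The ranges did not overlap in either line. The scrambled version of 81253073 (rs10943716) was below the control median in both lines, at -0.39 in TC28a2 (adjusted p 0.0478) and -0.47 in SW1353 (adjusted p 0.0161). With 1 replicate left out its level in TC28a2 was -0.44 to -0.32 (adjusted p 0.0924 to 0.201, edgeR). In SW1353 it was -0.52 to -0.42, with an adjusted p of 0.0305 without replicate 1, 0.0587 without replicate 2 and 0.0855 without replicate 3 (edgeR). Without the highest barcode of each element and library the level was -0.23 in TC28a2 (adjusted p 0.189, edgeR) and -0.11 in SW1353 (adjusted p 0.567, edgeR). The scrambled version of 81264034 (rs4481396) was at -0.15, -0.54 and -1.28 in SW1353 (adjusted p 0.0405, and 0.279 without replicate 3) and at 0.08 in TC28a2. The other 6 scrambled controls, those of rs504505, rs607208, rs6930203, rs9449073, rs9449075 and rs147911354, were not called in either line by the edgeR test; their levels were -0.33 to 0.34 in TC28a2, with -0.32 to 0.67 in SW1353. The highest of these, rs6930203 in SW1353, had an adjusted p of 0.0602 by that test and was called above by several alternatives: by DESeq2 (adjusted p 0.0492), by limma-voom (0.0444), without the highest barcode (0.0236, edgeR) and without replicate 2 (0.00641, edgeR). Its adjusted p was 0.185 without replicate 1 and 0.272 without replicate 3 (edgeR).

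No allele pair of the stretch passed the adjusted threshold in either line. The allelic effect is log2 of the activity of the alternative over that of the reference element. None of 167 pairs in TC28a2 and none of 166 in SW1353 passed an adjusted p of 0.05 (edgeR quasi-likelihood test of the allele by RNA interaction, adjusted over all pairs of the line). In the whole library 1 of 4399 pairs did in TC28a2 (0.0227%) and 1 of 4400 in SW1353 (0.0227%). At an unadjusted p under 0.05 there were 2 pairs in TC28a2 (1.20%, beside 2.64% of all pairs) and 6 in SW1353 (3.61%, beside 3.27% of all pairs), 3 of them with the alternative higher and 3 with it lower. DESeq2 and limma-voom called 0 pairs of the stretch as well. Depending on which replicate was left out, the number at an unadjusted p under 0.05 in TC28a2 was 6 (without replicate 1), 5 (without replicate 2) or 4 (without replicate 3).

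Effects were centred near 0. The lowest and highest effects in TC28a2 were -0.56 and 0.63, those in SW1353 were -1.44 and 1.62, and the size was 0.5 or more at 5 of 167 pairs and 20 of 166 pairs. Their median was -0.01 in TC28a2 (quartiles -0.13 and 0.14) and 0.01 in SW1353 (quartiles -0.19 and 0.18), beside medians of -0.00362 and 0.00709 over all pairs of the library. The median standard error was 0.24 in TC28a2 and 0.27 in SW1353. The 95% interval lay within a 2-fold change in either direction for 149 of 167 pairs in TC28a2 and 124 of 166 in SW1353, so that larger effects of those pairs fall outside their intervals, while the intervals of the others reached past a 2-fold change. Effects had the same sign in 3 of 3 replicates at 32 pairs in TC28a2 (19.2%, beside 21.2% of all pairs) and 43 in SW1353 (25.9%, beside 23.6%). Between the lines, 81 of 166 pairs had the same sign, and no pair had an unadjusted p under 0.05 in both. Transitions had a median absolute effect of 0.14 in TC28a2 and 0.22 in SW1353, and transversions 0.13 and 0.18. All 3 alternatives lay above their reference at 14 of 54 positions in TC28a2 and 14 in SW1353, and all 3 below it at 15 and 13. These 3 effects share 1 reference element and are not independent of each other, so that error in the reference alone can give them a common sign. Library shares of these counts were not computed, and the counts are not a result about the stretch.

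Substitutions are written with the reference base, the hg19 position counted from the start of chromosome 6 and the alternative base. In TC28a2 the pair with the smallest p was A81267550C, with effects of -0.34, -0.23 and -0.54 in replicates 1 to 3, a fitted effect of -0.37 ± 0.15 (SE; 95% interval -0.68 to -0.06) and an unadjusted p of 0.0227 (adjusted p 0.9997, edgeR quasi-likelihood test). The pair was picked by its p in TC28a2, so that the shared sign of its 3 replicates there adds no support. In SW1353 the same pair had -0.17, -0.37 and -0.25, with a fitted effect of -0.26 ± 0.21 and an unadjusted p of 0.244 (edgeR). All 4 elements of 81267550 were at the limit of 500 barcode positions in DNA and RNA of both lines. The part of this limit was not tested. At the active position 81261913, T81261913G had -0.19, -0.49 and -0.27 in TC28a2 (fitted -0.32 ± 0.14, unadjusted p 0.0335, edgeR) and -0.39, -0.32 and 0.27 in SW1353. At the same position, T81261913C was among the 5 smallest p in SW1353, with -0.77, -0.26 and -0.15 (fitted -0.39 ± 0.17, unadjusted p 0.0355, edgeR), and had 0.36, -0.33 and -0.38 in TC28a2. The reference T element of this position stood highest of its 4 alleles in both lines, at 1.28 in TC28a2 and 1.33 in SW1353, but even the lowest allele was at 0.96 and 0.93 and stayed above the scrambled median by the test.

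The other pairs named by rank in TC28a2 did not pass even an unadjusted p of 0.05. A81234737C had a fitted effect of 0.39 ± 0.20 in TC28a2 and 0.15 ± 0.29 in SW1353. T81274110C had -0.56 ± 0.29 and 0.12 ± 0.24, and A81244159G had 0.57 ± 0.30 and 0.42 ± 0.28. Replicates of T81274110C ranged from -1.18 to 0.18 in TC28a2 and those of A81244159G from -0.11 to 1.23, so that both change sign between replicates.

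In SW1353 the largest of the named effects was that of T81210583G, at 1.39, 0.40 and 1.97 by replicate, with a fitted effect of 1.25 ± 0.39 (95% interval 0.41 to 2.09) and an unadjusted p of 0.00699 (adjusted p 0.9909, edgeR quasi-likelihood test). In TC28a2 it had 0.45, -1.14 and 0.07. Its position has a median of 63.5 DNA barcodes in SW1353, and the reference element was counted 281, 367 and 214 times in RNA. A81234268G had 1.49, 0.97 and 0.35 in SW1353 (fitted 0.94 ± 0.32, unadjusted p 0.0125, edgeR), with 1544 counts of its RNA on a single barcode of 1 library, and -1.33, 0.05 and 1.68 in TC28a2. C81253073G had 0.67, 1.26 and 1.56 (fitted 1.16 ± 0.46, unadjusted p 0.0268, edgeR); 1 barcode held 1175 of its 1531 RNA counts in replicate 3. T81247098C had -0.53, -0.21 and -0.91 (fitted -0.55 ± 0.23, unadjusted p 0.0315, edgeR) and a fitted effect of -0.09 ± 0.19 in TC28a2.

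Single barcodes also held most RNA counts of a pair of elements with high but uncalled values. The alternative C element of 81210583 had 802, 775 and 7595 RNA counts in SW1353 replicates 1 to 3, of which 6869 in replicate 3 lay on 1 barcode. The reference element of 81215558 had 8806, 732 and 459, with 8156 on 1 barcode of replicate 1. They had activities of 1.33 ± 0.63 and 1.29 ± 0.59 (SE), the highest at their positions, with adjusted p of 0.104 and 0.0971 (edgeR quasi-likelihood test). These 2 elements were looked up after their values were seen.

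None of the 5 insertions and deletions was called in a line where it was tested. The insertion of TGAG at 81297039 (rs147911354), next to the active position 81296995, had replicate effects of -0.03, 0.12 and -0.39 in TC28a2 (fitted -0.10 ± 0.16) and 0.01, 0.30 and 0.86 in SW1353 (fitted 0.39 ± 0.20, unadjusted p 0.0749, edgeR). With 1 replicate left out the fitted effect in SW1353 was 0.15 to 0.58. The insertion of T at 81234832 had 0.06 ± 0.26 and -0.04 ± 0.37. The insertion of G at 81234961 had -0.24 ± 0.40 in TC28a2, from a median of 16 DNA barcodes at the position, and was not tested in SW1353. The deletion of T at 81248039 had -0.05 ± 0.23 and 0.07 ± 0.27, and the deletion of A at 81255493 had 0.28 ± 0.33 and 0.14 ± 0.43. All of their 95% intervals contained 0.

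Between the lines, some elements of 3 positions drove the reporter more in SW1353 than in TC28a2. Of 225 elements tested, 9 were higher in SW1353 (4%, beside 4.93% of all scoliosis elements) and 0 were lower (beside 0.0168% of all), by the edgeR quasi-likelihood test of the line by RNA interaction relative to the scrambled controls. They were all 4 elements of 81251116, by 0.47 to 0.75, all 4 of 81267550, by 0.69 to 0.79, and the reference element of 81246949, by 0.71. The median difference over the 225 elements was 0.16, beside 0.14 over all scoliosis elements. Without replicate 1 or without replicate 2 the number called was 6, and relative to the median difference of all shared elements it was 4. Without the highest barcode of each element and library it was 18, and by DESeq2 14.

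All 12 elements of these 3 positions reached the limit of 500 barcode positions in the RNA of TC28a2. In the RNA of SW1353 only those of 81267550 did so. In SW1353 DNA it was reached by 4 of 4 elements of 81251116, 4 of 4 of 81267550 and 3 of 4 of 81246949. In TC28a2 DNA it was reached by 1 of 4 elements of 81251116, 4 of 4 of 81267550 and 2 of 4 of 81246949. Of the 225 elements, 34 were at the limit in TC28a2 RNA, and 9 of them were called; the other 25, at 8 positions, were not. Among these 25 the difference ran from -0.32 to 0.55 with a median of 0.15, and all 4 elements of 81278244, with a mean of -0.07, and of 81223519, with a mean of 0.08, were among them. None of the 191 elements below the limit in TC28a2 RNA was called (median difference 0.14). The part of this limit in the difference was not tested, but a measure with each library's own barcode number taken out, chosen after seeing the data, can be set beside it. By the mean count per detected barcode, RNA over DNA relative to the scrambled controls, the difference between lines was -0.05 to 0.02 for the elements of 81251116, -0.25 to -0.04 for those of 81267550 and -0.19 for the reference element of 81246949, beside a median of -0.06 over the 225 elements. By that measure the reference element of 81251116 was at 1.05 in TC28a2 and 1.04 in SW1353. The higher level of 81251116 in SW1353 was present in summed counts and absent from this measure. The measure also leaves out how many barcodes were detected, which in RNA differed between the lines. It therefore cannot separate the limit from a difference in activity.

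Allelic effects were not found to differ between the lines. None of 166 pairs passed the test of the difference (0% of all 4393 pairs did), by edgeR's quasi-likelihood test with adjustment, by DESeq2 or by limma-voom. A single pair, T81210583G, had an unadjusted p under 0.05, beside 1.91% of all pairs. Its effect in SW1353 minus that in TC28a2 was 1.46 ± 0.52 (SE; 95% interval 0.38 to 2.54; unadjusted p 0.0106, adjusted p 0.9998, edgeR quasi-likelihood test). The median standard error of these differences was 0.38.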

How the data were processed

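The deposited tables hold counts per barcode position, whole numbers without normalization, for the reference and alternative element of each allele pair, with up to 500 positions per element and replicate, per the file headers. The build, per the submitters' processing notes, is hg19. The program that counted barcodes, how barcodes were cleaned, and whether a count is a read or a molecule are not given in the sources used here, so that intervals cover counting and replicate error only.

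Counts were summed for each element in each library. Controls included, there were 7236 elements in TC28a2 and 9769 in SW1353. Total counts were 5523658 to 5738307 per DNA and 22048832 to 22212124 per RNA library in TC28a2, and 15582658 to 15626361 and 37571404 to 37631975 in SW1353. An element was tested where every DNA library held 10 or more of its barcodes. Fits ran on all elements or pairs of a line with edgeR 4.0.16 in R 4.3.3 (TMM, quasi-likelihood test, two-sided), with Benjamini-Hochberg adjustment over everything tested. For activity the contrast was RNA against DNA, blocked by replicate number, for allelic effects the interaction with allele, and for line differences the interaction with line. Position means average the fitted activities of a position's elements, and the SD beside them is that of the 3 replicate means. Pairing comes from the labels, by which DNA and RNA were isolated together. Deviations of same-numbered DNA and RNA from their group means correlated at r = -0.0116 to 0.0231. Replicates differed by more than counting noise in every pair of libraries. The fits were also run on counts simulated with the same dispersion for every element. That simulation held no differences between replicates or barcodes, so that it does not cover the spread of these data. Alternatives used DESeq2 1.42.0, limma 3.58.1 (voom), other barcode minimums, and the removal of replicates, of each element's highest barcode and of elements at the limit.

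In each line the text names the 5 pairs of smallest unadjusted p (no pair was called), every insertion and deletion, the 5 highest and 3 lowest positions with at least 3 elements tested, and each scrambled control centred on a position. Members and naming rules were chosen with earlier results of these data known. The association library was not used.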

Additional observations from a re-analysis of the deposited data

Results flagged for a closer look

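In 9 elements the activity differed between the lines by the test of the line by RNA interaction (edgeR quasi-likelihood test, adjusted p under 0.05), always with the higher value in SW1353. At 81251116 the log2 difference was 0.47 for the reference G, 0.62 for A, 0.75 for C and 0.61 for T, and their adjusted p ran from 0.000892 to 0.0463. At 81267550 it was 0.69 for the reference A, 0.79 for C, 0.78 for G and 0.78 for T, with adjusted p from 0.00148 to 0.0482. At 81246949 it was 0.71 for the reference G (adjusted p 0.00356). The elements of a position are near copies of each other, so that these are 3 positions and not 9 independent findings. All 9 lay at the limit of 500 barcode positions in TC28a2 RNA, as did 25 elements that were not called. In SW1353 DNA the limit was reached by 4 of 4 elements of 81251116, 4 of 4 of 81267550 and 3 of 4 of 81246949. The part of the limit in the difference was not tested.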

How the results depend on the processing

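The count of 0 allelic calls held in both lines under all alternatives run, as did that of 0 differences of allelic effect between lines. Relative to the median of all elements, active elements numbered 27 in TC28a2 and 29 in SW1353, elements below 20 and 26, and the median reference activity was -0.051 and -0.062. Without elements at position 500, elements below numbered 6 and 4. With 1 replicate left out, elements below numbered 5 in TC28a2 each time and 4 to 6 in SW1353, and the median reference activity was 0.21 to 0.29 and 0.35 to 0.46. Line differences numbered 18 without the highest barcode, 14 by DESeq2 and 4 relative to the median of all shared elements, an alternative chosen after seeing the data. With no replicate block, active elements numbered 68 and 81, elements below 12 and 6, allelic calls 0 and 0, and line differences 11 for activity and 0 for allelic effects; the replicate block thus changed none of these counts by over 1.5 times. It moved the number of TC28a2 pairs at an unadjusted p under 0.05 from 2 to 5.

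Signs turned, among the named pairs, positions and controls, only for those that were not called. Among positions the sign turned at 81227116 in TC28a2, where the mean was -0.083 without replicate 2. It was 0.017 without replicate 1 and 0.18 without replicate 3. This mean was -0.066 without the highest barcode and -0.25 relative to all elements. With 1 replicate left out in turn, allelic effects in TC28a2 ran from -0.53 to 0.26 for T81210583G, -0.64 to 0.87 for A81234268G, -0.19 to 0.0067 for T81247098C, -0.30 to 0.25 for C81253073G and -0.35 to 0.014 for T81261913C. For insertions and deletions they ran from -0.022 to 0.20 at 81234832, -0.55 to 0.11 at 81234961, -0.23 to 0.062 at 81248039 and -0.21 to 0.045 at 81297039. In SW1353 they ran from -0.077 to 0.30 for A81234737C, -0.23 to 0.069 at 81234832, -0.016 to 0.18 at 81248039, -0.15 to 0.45 at 81255493 and -0.019 to 0.30 for T81274110C. Scrambled controls ran from -0.23 to 0.045 for rs147911354, -0.19 to 0.28 for rs4481396, -0.0071 to 0.11 for rs504505, -0.15 to 0.071 for rs607208 and -0.31 to 0.0060 for rs9449073 in TC28a2, and from -0.16 to 0.11 for rs504505 in SW1353. Without the highest barcode, C81253073G was at 0.37 and the controls rs147911354 and rs607208 at 6.4e-05 and 0.049 in TC28a2, and the insertion at 81234832 was at 0.12 in SW1353. With no replicate block A81234268G was at -0.026 in TC28a2. Relative to all elements rs4481396 and rs504505 were at -0.21 and -0.23 in TC28a2, and rs607208 was at -0.24 in SW1353. The causes were not tested. Signs turned in TC28a2 both at positions with few DNA barcodes, such as 81227116 (median 32.5), and with many, such as 81297039 (median 356).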
